A study of Mus musculus with 4 samples.

Results

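The tight junction genes described here are Cldn1, Cldn3, Cldn4, Cldn7, Cldn8, Cldn12, Cldn23, Ocln, F11r and Tjp1, taken as every gene probe whose accession RefSeq assigns to 1 of these 10 symbols. They had 13 probes among the 41174 distinct probes of the array, and 9 of the 10 genes were among the 20830 genes and transcripts that passed the filter on dim probes. The mice were C57BL/6, and the study compared their colonic mucosa at 90 days after birth (P90) with that at 30 days (P30). The labels name no treatment or genotype beyond the strain. Each of 4 two-colour arrays (a, b, e and k) received 1 P90 RNA and 1 P30 RNA, with P90 in Cy3 except on array e, the dye swap, where it was in Cy5. The mucosa was sheared off the colon wall, so each RNA is that of a mixed tissue, and the labels do not say whether any animal served on more than 1 array. The p-values below thus cover only the scatter among these 4 RNA pairs, which may be technical in part.

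Tight junctions seal the space between neighbouring epithelial cells near their apical border. Claudins span the membrane and set which ions can pass: some close the space, others form pores. Occludin and JAM-A lie beside them in the membrane, and ZO-1 ties these proteins to the actin cytoskeleton. In the colon, this seal is known to hold luminal bacteria and their products apart from the tissue and to keep absorbed sodium from leaking back, and aldosterone is known to raise both sodium channel subunits and sealing claudins there.

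No tight junction gene passed the test between P90 and P30. In limma with Benjamini-Hochberg adjustment over all genes, 0 of the 9 tested members had an adjusted p under 0.05, and their smallest adjusted p was 0.628. The background was the same: 0 of 20830 genes passed (0%), with a smallest adjusted p of 0.617, while 1646 genes (7.90%) and none of the 9 members had an unadjusted p under 0.05. The fit to separate probes called 0 of 27059 probes (0%). The members fell into 3 kinds by what the scanner could measure. Cldn1 was not above background, Cldn3, Cldn7 and F11r were so bright that the scanner was saturated, and Cldn4, Cldn8, Cldn12, Cldn23, Ocln and Tjp1 could be measured in both channels on all 4 arrays.

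The arrays differed from each other, which touches every mean given here. Over all genes, the log2 ratios of P90 over P30 correlated at 0.60 between arrays a and e, 0.44 between a and k and 0.32 between e and k. Array b ran against the others, at -0.31 with a, -0.27 with e and -0.19 with k, although its labelled dyes are those of a and k. Its direction was kept as the labels give it, and with its sign turned the mean was -0.068 for Cldn8, 0.17 for Cldn12 and -0.042 for Cldn23, while Tjp1 and Ocln are given below. Epithelial transcripts gave bright spots: of 12 epithelial markers, Krt8, Krt18, Krt19, Krt20, Vil1 and Lgals4 reached the scanner's ceiling. Such spots show epithelium in the RNA but not that other layers of the colon wall were absent. Markers of fibroblasts, muscle and fat differed between arrays, as given beside the results.

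Claudin 1, a sealing claudin best known from the skin barrier, was not well above background in either channel on any of the 4 arrays. Its brighter probe had raw signals of 59.0, 64.0, 76.0 and 64.0 at P90 on arrays a, b, e and k, against 85.0, 77, 67.0 and 82.0 at P30. The second probe read between 57.0 and 74.5 at P90 and between 67.5 and 79.5 at P30. These values give no level for Cldn1 and no ratio between the ages. They do not show that the gene is silent.

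Claudins 3 and 7, a sealing claudin and a claudin of the basolateral membrane whose loss inflames the gut in mice, were at or close to the top of the scanner's range. Cldn7 was at the scanner's ceiling in both channels on all 4 arrays. For Cldn3, the raw P90 signals on arrays a, b, e and k were 33370, 53532, 65507 and 53210, against P30 signals of 65507, 65507, 49765 and 65507, and 65507 is the ceiling of the Cy5 channel. Every array thus had a saturated side for Cldn3, and on all 4 that side was the Cy5 channel: P30 on a, b and k, and P90 on e. JAM-A (F11r), an immunoglobulin-type adhesion protein of the junction, was saturated at P30 on all 4 arrays and at P90 on b and e. Its P90 signal was 50512 on a and 45880 on k, where it stayed below the ceiling.

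The ratios of these 3 genes are not read as ratios. Between 42 and 181 gene probes per array were at the ceiling in both channels, and after loess normalization the median of their log2 ratios was 1.06, 0.33, -0.155 and 0.76 for arrays a, b, e and k. Cldn7 had 1.06, 0.33, -0.16 and 0.76. A spot with nearly equal raw signals in both channels is left with the loess correction of its array, so a value like that of Cldn7 carries no measurement of age. What the arrays do show is that Cldn3, Cldn7 and F11r transcripts gave bright spots at both ages.

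**Figure D1:**
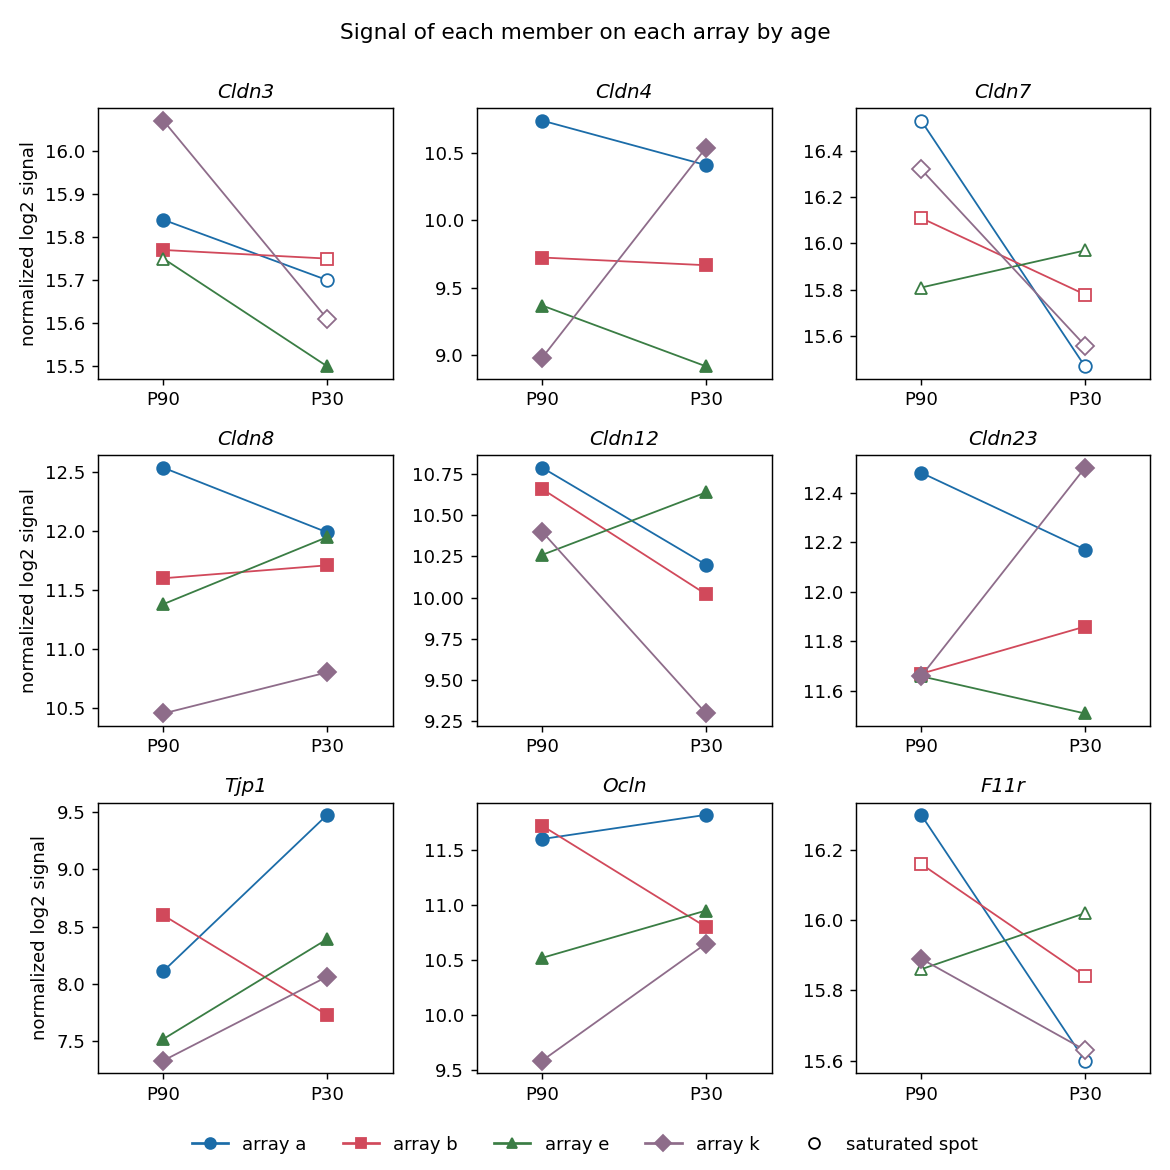
Normalized log2 signal of the 9 members above background (one panel each, with its own vertical scale) at P90 on the left and P30 on the right. Each point is 1 array, lines join the RNAs of 1 array, and hollow points mark a saturated spot. The lines of Cldn4, Cldn8, Cldn12, Cldn23, Ocln and Tjp1 run in both directions. Those of Cldn3, Cldn7 and F11r rest on saturated spots.

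Claudin 4 restricts the passage of sodium in epithelial cells and, in the kidney, pairs with claudin 8. Its ratios were among the most scattered of the members, and for that reason its promoter and that of Tjp1, the pair of members with the widest range over the arrays, are shown. The sequences are the 250 bases before the gene start in RefSeq (GRCm38.p6), 5′ to 3′ on the minus strand, at chr5:134946935-134947184 for Cldn4 and chr7:65371245-65371494 for Tjp1. Capitals mark the motifs searched, each on both strands and so also as its reverse complement: the GC box GGGCGG, known to be bound by Sp1, and the E-box CACCTG, known to be bound by Snail-type repressors.
Cldn4: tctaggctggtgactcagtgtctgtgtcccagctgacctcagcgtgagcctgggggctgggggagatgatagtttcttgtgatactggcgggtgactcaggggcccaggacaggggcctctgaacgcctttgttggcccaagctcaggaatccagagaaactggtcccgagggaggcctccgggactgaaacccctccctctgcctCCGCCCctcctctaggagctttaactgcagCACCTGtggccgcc
Tjp1: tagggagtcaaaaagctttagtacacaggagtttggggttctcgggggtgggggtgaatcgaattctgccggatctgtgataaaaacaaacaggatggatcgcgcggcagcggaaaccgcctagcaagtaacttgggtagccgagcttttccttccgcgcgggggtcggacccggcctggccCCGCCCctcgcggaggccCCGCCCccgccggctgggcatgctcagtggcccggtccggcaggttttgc
The Cldn4 window held 1 GC box, 44 bases before the start, and 1 E-box, 14 bases before it. The Tjp1 window held 2 GC boxes, 68 and 50 bases before the start, and no E-box of these letters. Of the 32851 promoter windows of the same length in the table, 32.74% held the GC box and 17.22% the E-box, and the motifs do not overlap each other here. A match is a run of letters and was not tested as a binding site.

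The normalized log2 signal of Cldn4 at P90 was 10.74, 9.73, 9.37 and 8.98 on arrays a, b, e and k, against 10.41, 9.67, 8.92 and 10.54 at P30. It was thus higher at P90 on a, b and e and lower on k, and the ranges of the ages overlapped. The log2 ratios of P90 over P30 were 0.32, 0.06, 0.45 and -1.55 in the same order. Their mean was -0.18 ± 0.93 (SD, n = 4 arrays), with a 95% interval from -1.06 to 0.70 and an adjusted p of 0.937 in limma. Array k alone set the sign: without it the mean was 0.28. The genes whose 4 ratios lay closest to those of Cldn4, of 13729 compared by root mean square difference, were Mogat2 (0.106), Osbpl3 (0.138) and Ocm (0.158).

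Claudin 8 is known in mouse and human colon as a sealing claudin that rises with aldosterone and hinders the backflow of sodium. At P90 its log2 signal was 12.54, 11.60, 11.38 and 10.45 on arrays a, b, e and k, against 11.99, 11.71, 11.95 and 10.80 at P30. P90 was higher on array a and lower on b, e and k, with overlapping ranges. The mean log2 ratio was -0.12 ± 0.48 (SD, n = 4), with an interval from -0.64 to 0.40 (limma, adjusted p = 0.922). Without array e, the dye swap, the mean was 0.028.

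Claudin 12, which in the mouse intestine is linked to paracellular calcium uptake, was the measurable member with a mean above 0. At P90 its log2 signal was 10.79, 10.66, 10.26 and 10.40 on arrays a, b, e and k, against 10.20, 10.02, 10.64 and 9.30 at P30. P90 was higher on a, b and k, where it carried Cy3, and lower on e, where it carried Cy5. The ratios were 0.58, 0.64, -0.38 and 1.101, with a mean of 0.49 ± 0.62 (SD, n = 4) and an interval from -0.14 to 1.11 (limma, adjusted p = 0.650). Without e the mean was 0.77, and without k it was 0.28. It was 0.092 with median centring and 0.20 with a dye term. With 1 swapped array, the dye and the RNA pair of array e cannot be told apart.

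Cldn23, a claudin described in the human colon epithelium, split evenly. At P90 its log2 signal was 12.48, 11.67, 11.66 and 11.66 on arrays a, b, e and k, against 12.17, 11.86, 11.51 and 12.50 at P30. The P90 value was higher on a and e and lower on b and k, and its ratio was lowest on array k, at -0.83. The mean ratio was -0.14 ± 0.51 (SD, n = 4), with an interval from -0.68 to 0.40 (limma, adjusted p = 0.912), and without array k it was 0.091.

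Occludin, a MARVEL-domain membrane protein of the junction, had log2 signals of 11.60, 11.72, 10.52 and 9.59 at P90 on arrays a, b, e and k, against 11.82, 10.80, 10.95 and 10.65 at P30. It was higher at P90 on array b and lower on a, e and k, and the ranges overlapped. The ratios were -0.22, 0.92, -0.43 and -1.06, with a mean of -0.20 ± 0.83 (SD, n = 4) and an interval from -0.99 to 0.60 (limma, adjusted p = 0.918). Without array b the mean was -0.57, with the sign of b turned it was -0.66 (adjusted p = 0.115), and without array k it was 0.091. A second, dimmer Ocln probe, above background in both channels on all 4 arrays, had ratios of 0.05, 0.26, 0.01 and -0.08 and a mean of 0.062. Both probes were highest on b and lowest on k, and their means had opposite signs.

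ZO-1 (Tjp1), the scaffold, had the widest range of ratios among the measurable members, 2.23 log2 units. Its raw signals at P90 on arrays a, b, e and k were 143.0, 542.0, 182.5 and 106.0, against 1168.0, 259, 356.0 and 294.0 at P30. These are low signals, so the normexp offset of 50 shrinks its ratios more than those of brighter members. The normalized log2 signal at P90 was 8.11, 8.60, 7.52 and 7.33, against 9.48, 7.73, 8.39 and 8.07 at P30, higher on array b and lower on a, e and k. The ratios were -1.36, 0.87, -0.87 and -0.73, with a mean of -0.52 ± 0.97 (SD, n = 4) and an interval from -1.44 to 0.39 (limma, adjusted p = 0.730).

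Among the fits that left out an array, those without a and b moved the Tjp1 mean farthest. Without a it was -0.24. Without b it was -0.99, with an adjusted p of 0.0834, and with the sign of b turned it was -0.96, with an adjusted p of 0.067. With array weights it was -0.82 (adjusted p = 0.187), and with the sign of e left unturned, against its labelled dyes, it was -0.088. Median centring gave -0.84, the authors' deposited log ratios -0.81 and the mean over both probes -0.32. None of these settings took Tjp1 past the threshold. The second Tjp1 probe was dimmer, above background at P90 on 2 arrays only, and had ratios of -0.17, -0.04, -0.01 and -0.22. The genes with ratios closest to those of Tjp1, over 4 arrays and 13729 genes, were Zbtb1 (root mean square difference 0.068), Rnf6 (0.084) and Rnf138 (0.097).

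**Figure D2:**
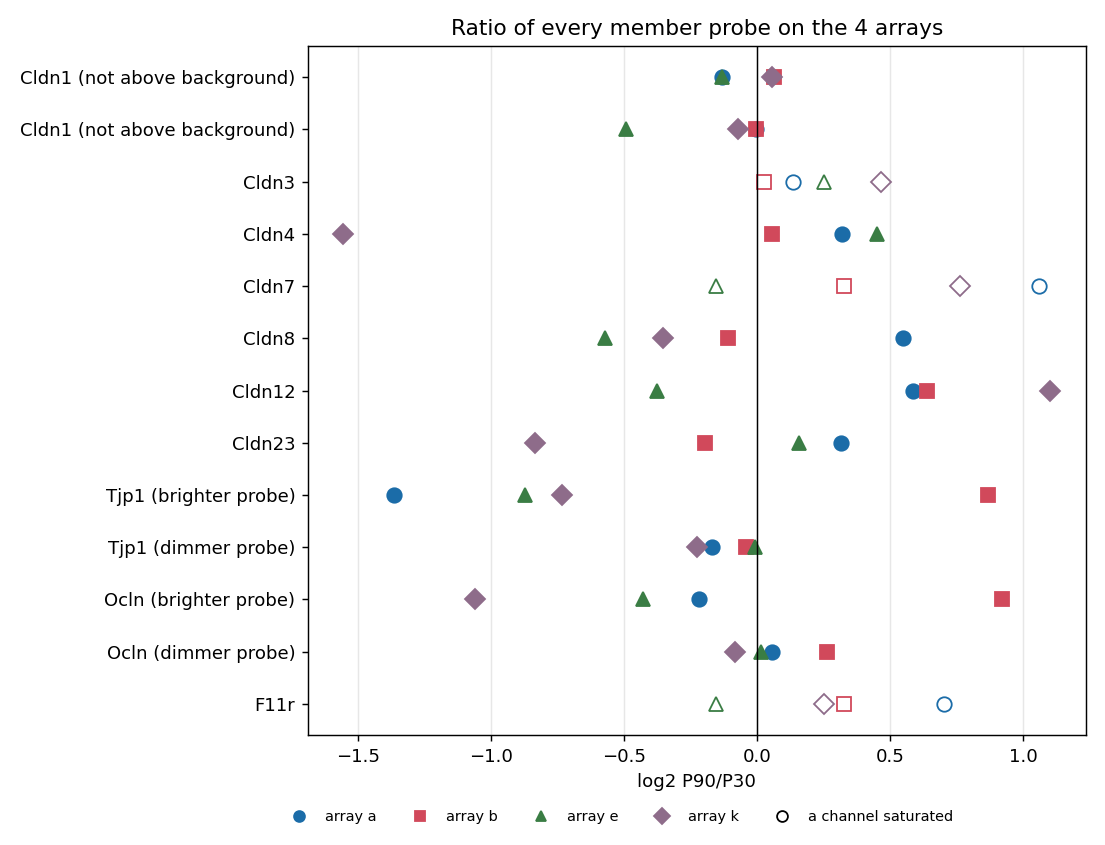
Log2 ratio of P90 over P30 (horizontal axis) of each of the 13 member probes, with 1 symbol per array. Hollow symbols mark ratios with a saturated channel, and the Cldn1 probes were not above background. Array k lies lowest for Cldn4, Cldn23 and both Ocln probes, and array b lies apart to the right for the brighter Tjp1 and Ocln probes.

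Over the 6 measurable members, 1 mean lay above 0 (45.6% of all genes did) and 5 lay below (54.4%). None was above 0 on all 4 arrays (6.14% of all genes) and none below 0 on all 4 (7.98%). The median of their means was -0.16, beside -0.022 over all measurable genes. Over the 9 tested members, saturated ones included, it was -0.12, beside -0.020 over all genes. By arrays, Cldn4, Cldn23 and Ocln (3 of 6) had their lowest ratio on k, as 17.9% of all genes did, and Tjp1 and Ocln (2 of 6) were positive on b and negative on the other 3 arrays, as 19.1% of all genes were. These splits were chosen after the values were seen and are descriptions.

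Ratios of other cell types' markers varied with both patterns. The summed or median level of a cell type's markers in bulk tissue cannot tell fewer cells of that type from less RNA per cell. The median log2 ratios of 12 fibroblast and matrix markers were -3.11, 1.48, -1.39 and -2.69 for arrays a, b, e and k, and all 12 were above 0 on b and below 0 on the others, the order of signs seen in Tjp1 and Ocln. For 11 endothelial markers the medians were -1.01, 0.88, -0.44 and -1.15, with 8 of 11 in that order of signs. On array k, where Cldn4, Cldn23 and Ocln were lowest, the median of 6 measurable mature colonocyte markers was -0.57, against 0.41, 0.14 and 0.41 on a, b and e. That of 7 smooth muscle markers was -1.22 on k, against 0.31, 0.85 and 0.999. The part of these cell types in the members' ratios was not tested.

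The 12 epithelial markers bear on how much epithelium each RNA held. Their 6 measurable members had medians of -0.08, 0.08, -0.11 and -0.39 for arrays a, b, e and k. By mean, 4 of these 6 lay above 0 and 2 below, with a median of 0.046. Among those below 0, Epcam, an adhesion protein of epithelial cells that binds claudin 7, had a mean of -0.34 ± 0.36 (SD, n = 4). The other, Cdx2, had -0.40 ± 0.33 (SD, n = 4) and was below 0 on all 4 arrays, as 7.98% of all genes were. Adipocyte markers reached a median of 5.45 on e and 2.20 on b, against 0.15 on a and 0.45 on k, and the medians of 12 leukocyte markers lay between -0.47 (a) and 0.80 (b), with single markers outside that range. No member followed the adipocyte order, in which e and b are highest.

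**Figure D3:**
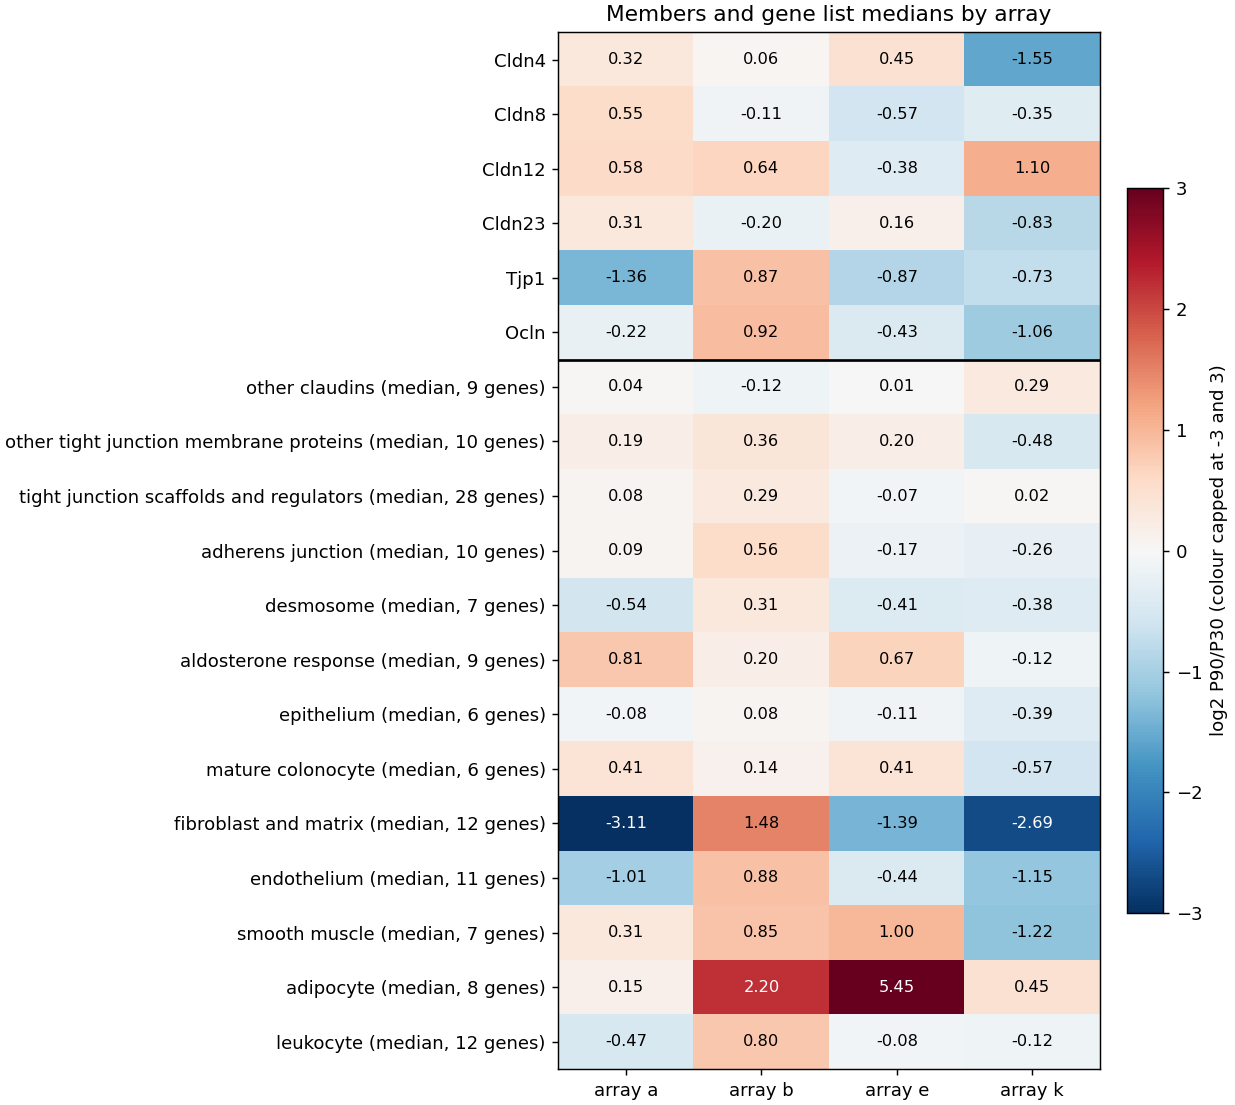
Log2 ratio of P90 over P30 on each array (columns) for the 6 measurable members and, below the line, the median of each gene list over its measurable genes. Red is higher at P90, blue lower, and the number is printed in each cell. Tjp1, Ocln and the medians of the fibroblast, endothelium, desmosome, leukocyte and epithelium lists share the order of signs with array b opposed. Single genes with that order were 12 of 12, 8 of 11, 4 of 7, 6 of 12 and 1 of 6 in these lists, beside 19.1% of all genes. Array k is the lowest of the 4 for Cldn4, Cldn23 and Ocln. It is also lowest for the medians of the other membrane proteins, adherens junction, aldosterone response, epithelium, mature colonocyte, endothelium and smooth muscle.

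Of a list of 18 further claudins and claudin-domain proteins, 15 had a probe that RefSeq named and 9 passed the filter. Of these, 6 had a mean above 0 and 3 below, with a median of 0.091, and none passed the test. Cldnd1, a claudin-domain protein, had the mean farthest from 0, -0.61 ± 0.51 (limma, unadjusted p = 0.0333, adjusted p = 0.623), and was named after its values were seen. Claudin 2, a pore for cations and water, had a mean log2 ratio of 0.13 ± 0.92, and claudin 15, a sodium pore of the intestine, -0.084 ± 0.42. Claudin 10, also a pore former, had 0.27 ± 0.69, and claudin 5, the claudin of blood vessels, -0.34 ± 0.92 (SD, n = 4 each). Cldn5 was -0.72 without array b, -0.093 without a and -0.082 without k, and Cldn10 was 0.011 without a, 0.52 without b and 0.15 without e. Cldn18 was not above the filter.

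By their brightest probes, most other membrane proteins of the junction were lowest on array k, as Cldn4, Cldn23 and Ocln were. Of 10 such genes, 9 had their lowest ratio on k (17.9% of all genes), and the list had a median of -0.48 there, against 0.19, 0.36 and 0.20 for arrays a, b and e. The mean was above 0 for 5 and below 0 for 5. The count of 9 on k rests on the brightest probes. Second probes were lowest on e for Marveld2 and for Igsf5 (-0.26, against 0.23 on k). That of Marveld3 was lowest on b (0.12, against 0.51 on k), while the other kept Cxadr probes were lowest on k. Tricellulin (Marveld2), the relative of occludin at tricellular contacts, had ratios of -0.65, 0.28, -0.61 and -0.69 and a mean of -0.42 ± 0.47. These signs are those of Ocln, but a second, dimmer Marveld2 probe had -0.12, 0.85, -0.61 and 0.17, with a mean of 0.073. Cxadr, the coxsackie and adenovirus receptor, had 0.93, 0.30, 0.56 and -0.90 and a mean of 0.22 ± 0.79, while its other kept probes had means of 0.63 and -0.59. Lsr, which recruits tricellulin, had a mean of 0.076 ± 0.29 and was saturated at P90 on 1 array and at P30 on 2. These were different arrays, so with saturated spots left out array a alone remained, with a ratio of 0.18.

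Scaffolds and regulators had means on both sides of 0. Of 28 measurable genes, 16 had a mean above 0 and 12 below, with a median of 0.053, and none passed the test. ZO-3 (Tjp3) had a mean of 0.0031 ± 0.27, beside -0.52 ± 0.97 for Tjp1 (SD, n = 4 each). The polarity proteins Pard3 and Patj had 0.046 ± 0.23 and 0.11 ± 0.37. Cingulin (Cgn), which links ZO proteins to myosin, was above 0 on all 4 arrays, at 0.94, 0.71, 0.14 and 0.39, with a mean of 0.55 ± 0.35 (limma, adjusted p = 0.617). Its second probe had a mean of 0.029. Amotl2, Rhoa, Vasp and Prkcz were also above 0 on all 4, which makes 5 of 28, beside 6.14% of all genes. This count rests on the brightest probes. Second probes were below 0 on b for Cgn (-0.49) and Rhoa (-0.13) and on a and e for Prkcz (-0.19 and -0.24). That of Vasp was above 0 on all 4.

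No gene of the neighbouring junctions passed the test. Of 10 adherens junction genes, 6 had a mean above 0 and 4 below, with a median of 0.13. The 4 below 0 were Nectin3 (-0.82), Ctnna1 (-0.62, unadjusted p = 0.0485 and adjusted p = 0.627 in limma), Afdn (-0.41) and Vcl (-0.27). By their brightest probes, these 4 of the 10 genes had the signs of Tjp1, positive on b alone, as 19.1% of all genes had. Genes picked for a mean below 0 have these signs more readily, so the count is a description. Ctnna1 was only 0.068 on b. Other probes differed: the second Afdn and Nectin3 probes were below 0 on b, at -0.56 and -0.076. The second Vcl probe was above 0 on both b and k. In this junction, which lies below the tight junction, E-cadherin (Cdh1) had a mean of 0.089 ± 0.37, beta-catenin (Ctnnb1) 0.18 ± 0.36 and p120-catenin (Ctnnd1) 0.21 ± 0.60 (SD, n = 4 each). Cdh1 was saturated at P30 on 1 array. Plakoglobin (Jup), named like those 4 after its values were seen, was above 0 on all 4 arrays at 0.59, 0.48, 0.64 and 0.55, with a mean of 0.57 ± 0.064 and an adjusted p of 0.617 in limma. Of 7 measurable desmosome genes, 4 were above 0 on b and below 0 elsewhere, as Tjp1 and 19.1% of all genes were. Desmoglein 2 (Dsg2) among them had ratios of -1.86, 1.62, -1.51 and -1.10 and a mean of -0.71 ± 1.59, which was -1.49 without b, -0.33 without a and -0.45 without e. Its mean over the probes was -0.40, and 1 of its 4 probes had a mean of 0.0078. Desmoplakin (Dsp) had a mean of -0.41 ± 0.80 by its brightest probe and -0.22 over its probes, the others having -0.42, 0.011 and -0.046.

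Genes of the aldosterone response, to which Cldn8 belongs in the colon, did not pass the test either. The measurable 9 had medians of 0.81, 0.20, 0.67 and -0.12 for arrays a, b, e and k, beside Cldn8 ratios of 0.55, -0.11, -0.57 and -0.35. By mean, 5 lay above 0 and 4 below. The sodium channel subunit Scnn1a, named after its values were seen, was above 0 on all 4 arrays at 1.62, 0.54, 1.13 and 0.24, with a mean of 0.88 ± 0.61 (limma, unadjusted p = 0.0132, adjusted p = 0.617). A second, dimmer Scnn1a probe had 1.02, -0.10, 0.55 and -0.014, with a mean of 0.36. The subunit Scnn1b had a mean of 0.40 ± 0.62. Scnn1g, the other subunit, had ratios of 1.76, -1.99, 1.57 and -1.77, positive on a and e and negative on b and k, with a mean of -0.11 ± 2.05. Its spots were dimmer than those of Tjp1. The kinase Sgk1 had a mean of -0.64 ± 0.84, and Hsd11b2, which shields the receptor from glucocorticoids, 0.71 ± 0.75 (SD, n = 4 each). Sgk1 was -0.26 without array k, and Hsd11b2 was 0.46 without array a. On array e, Cldn8 was below 0, as were Sgk1 (-0.43) and Nedd4l (-0.60) of this list. The other measurable genes of the list, Scnn1a, Scnn1b and Scnn1g among them, were above 0 there, and the difference was not tested.

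**Figure D4:**
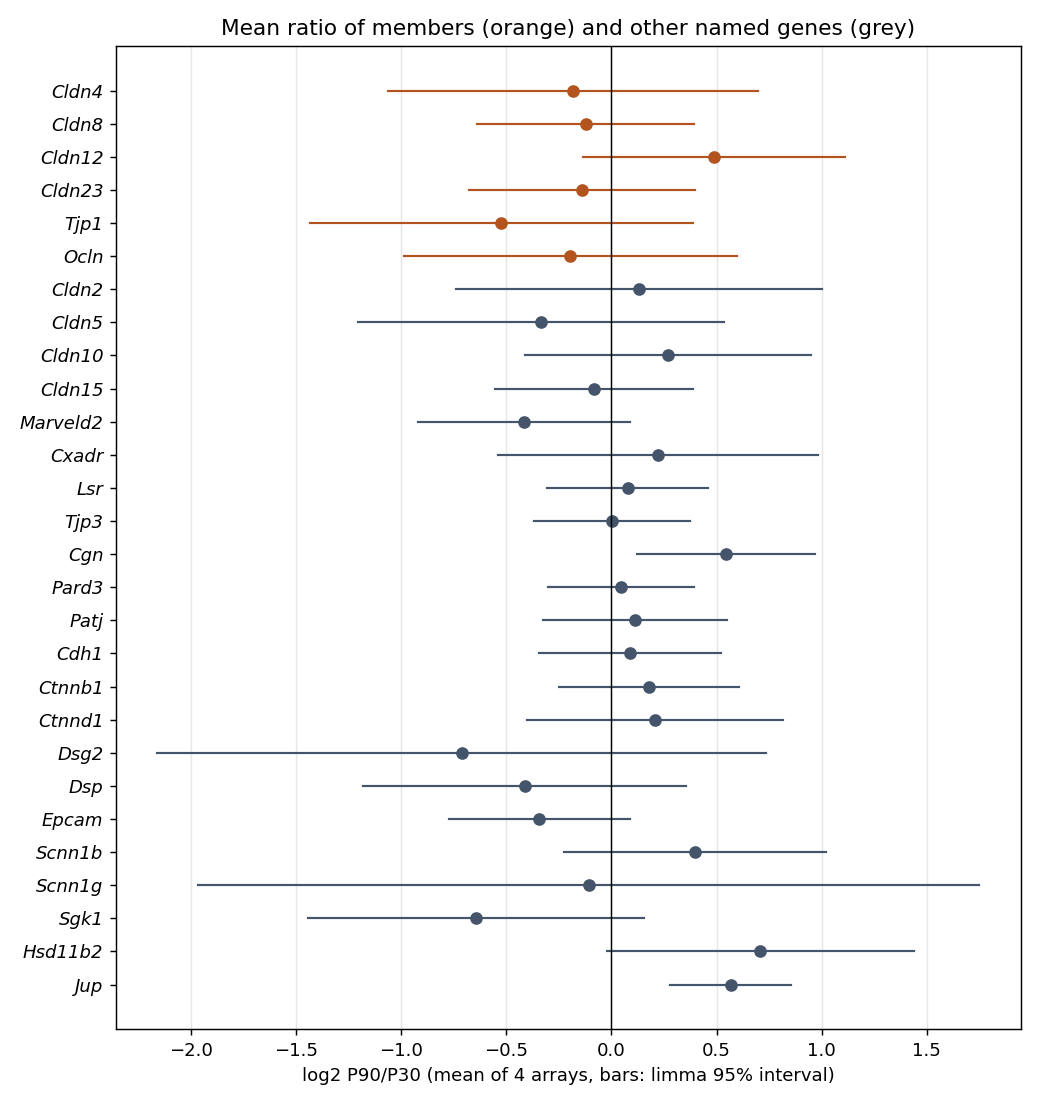
Mean log2 ratio of P90 over P30 with its 95% interval (bars, limma, n = 4 arrays) for the 6 measurable members in orange. Shown in grey are some of the other named genes. Intervals of all 6 members include 0, and those of Cgn and Jup, which are not adjusted for the number of genes, do not. Named genes not drawn whose unadjusted intervals also exclude 0 are Scnn1a (0.266 to 1.501), Cldnd1 (-1.145 to -0.068), Ctnna1 (-1.226 to -0.0057) and Vasp (0.031 to 0.644). The widest interval drawn is that of Scnn1g.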

How the data were processed

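Per the file headers, the deposited values are linear intensity, as the median brightness of each spot and of its surround in either channel. The authors' log10 ratio per spot sets Cy5 over Cy3 from the software's background-subtracted and dye-scaled signals, per the file headers. The deposited series table matched that ratio as log2 P90 over P30 within 0.01 for 79.98% (a), 86.99% (b), 86.52% (e) and 80.51% (k) of probes, with r of 0.887, 0.993, 0.999 and 0.882 and column medians of 0.21, -0.17, 0.049 and 0.17. Its centring stays unknown. The deposited marks per spot for outliers, background and saturation have no unit of their own (other). The file headers give Agilent Feature Extraction 10.5.1.1, and the submitters' processing notes give 8.5.1.1.

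Each array had 43379 gene spots. The planned test did not name the spot statistic, and medians were taken, as mean signals were not used here. Background was corrected with normexp (offset 50), followed by loess within arrays (span 0.3, control spots at weight 0), in limma 3.58.1 under R 4.3.3. Between 127 and 156 outlier gene spots per array were dropped, while saturated ones stayed in. Ratios were turned to log2 P90 over P30. Levels per channel came from Aquantile normalization after loess. Probes well above background at P90 or at P30 on at least 3 arrays were kept (27059, 65.72%), and the brightest probe stood for its gene. RefSeq accessions (GRCm38.p6) named 25097 probes. Genes saturated in a channel on 3 or more arrays were called not measurable. The mean ratio was tested against 0 with lmFit and eBayes over 4 arrays, with Benjamini-Hochberg adjustment over 20830 genes and transcripts at 0.05. The number of arrays limits the precision. The 4 arrays share 1 slide and 1 scan day, which leaves no batch to test. The script was tested on simulated data.

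The members and the 13 other gene lists (147 of 164 entries tested, some genes in more than 1 list) were chosen with earlier results of these data known. Named were all members, other junction and aldosterone genes chosen by role, any list gene past the test, and the 3 genes most like each of the 2 members with the widest range. Jup, Cldnd1, Nectin3, Ctnna1, Afdn, Vcl, Cdx2 and the junction and aldosterone genes in 1 direction on all 4 arrays were named after their values were seen. A gene of the rule is not reported here.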

Additional observations from a re-analysis of the deposited data

Results flagged for a closer look

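Tricellulin (Marveld2) had a log2 ratio of P90 over P30 of 0.28 on array b, far from -0.65, -0.61 and -0.69 on arrays a, e and k. The gap to its nearest neighbour, divided by the whole range, was 0.918, above Dixon's 95% critical value for 4 samples. It was 1 of 42 genes and lists examined this way, and chance sets apart about 1 in 20. The second Marveld2 probe had 0.85 on b, against -0.12, -0.61 and 0.17 on a, e and k, and the mean over both probes was -0.17, against -0.42 for the brighter probe. No member stood out by this measure.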

How the results depend on the processing

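No member passed the test under any of 19 alternatives, 4 of which left out an array. Over all genes, 2 passed, none of them a member, with a normexp offset of 10 and with each of 3 other starting values: the software's processed signals, its log ratios and the authors' value table. In the reported fit, 0 had passed. Genes at an unadjusted p under 0.05 numbered 1646 there, from 496 with array e unturned to 4975 with array b turned. Median centring in place of loess shifted all genes (median -0.21, against -0.020) and took the median of the members' means to -0.50. There Cldn2 was -0.27, Cxadr -0.16, Lsr -0.20, Tjp3 -0.34, Pard3 -0.35, Patj -0.29, Cdh1 -0.20, Ctnnb1 -0.14 and Ctnnd1 -0.19, each with its sign changed. With a dye term, signs changed for Cldn4 (0.029), Patj (-0.029), Ctnnd1 (-0.0028) and Scnn1g (0.45). With array e left unturned, they changed for Cldn8 (0.16), Ocln (0.019), Cldn10 (-0.042), Cldn15 (0.19), Cxadr (-0.057), Lsr (-0.14), Tjp3 (-0.18), Dsg2 (0.044) and Scnn1b (-0.034). With array b turned, they changed for Cldn2 (-0.10), Pard3 (-0.059), Patj (-0.19), Cdh1 (-0.085), Ctnnb1 (-0.14), Ctnnd1 (-0.30) and Scnn1g (0.89). Cldn15 was 0.0061 both from the software's log ratios and from the value table, Pard3 was -0.16 as the mean over its probes, and array weights gave Patj -0.0033 and Scnn1g 0.28. The cause of these changes was not tested.

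With each array left out in turn, the median of the members' means ranged from -0.19 to 0.14. Ranges that crossed 0 were -0.39 to 0.28 for Cldn4, -0.34 to 0.028 for Cldn8, -0.29 to 0.091 for Cldn23, -0.57 to 0.091 for Ocln, -0.23 to 0.49 for Cldn2, -0.27 to 0.073 for Cldn15, -0.013 to 0.60 for Cxadr, -0.042 to 0.18 for Lsr, -0.12 to 0.086 for Tjp3, -0.024 to 0.13 for Pard3, -0.053 to 0.25 for Patj, -0.061 to 0.42 for Ctnnd1 and -0.73 to 0.52 for Scnn1g. Cldn12 (0.092 to 0.77) and Tjp1 (-0.99 to -0.088) kept their sign under the 19 alternatives, with sizes that differed over 1.5 times. Without a sign change, leaving out an array gave -0.72 to -0.082 for Cldn5, 0.011 to 0.52 for Cldn10, -0.65 to -0.33 for Marveld2, 0.41 to 0.68 for Cgn, 0.0030 to 0.26 for Cdh1, 0.023 to 0.28 for Ctnnb1, -1.49 to -0.33 for Dsg2, -0.79 to -0.19 for Dsp, -0.51 to -0.22 for Epcam, 0.24 to 0.69 for Scnn1b, -0.92 to -0.26 for Sgk1, 0.46 to 1.05 for Hsd11b2 and 0.54 to 0.59 for Jup. Saturation limits Cldn3, Cldn7, F11r and Lsr, and low signal limits Cldn1 and Tjp1. It also limits Cldn5, Cldn10, Scnn1g and Amotl2, whose mean log2 intensities (8.06, 6.70, 7.59 and 7.995) lay below that of Tjp1 (8.16).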
